A study of Mus musculus with 8 samples.

Results

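The creatine system of CD8+ T cells was followed through 4 genes: *Ckmt1*, *Ckb*, *Slc6a8* and *Gamt*. They stand for the mitochondrial and cytosolic creatine kinases, creatine uptake and the last step of creatine synthesis. Their symbols were matched to Ensembl identifiers and read out of 55536 genes listed in each count table, comparing GC7-treated with mock-treated cells. The 4 genes were picked with this comparison in view, *Ckmt1* because it was among the largest increases, so their own values are given as a description and carry no test. Of the 4, 3 passed the expression filter applied to all genes, and *Gamt* did not.

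Creatine kinases move a phosphate group between ATP and creatine, and phosphocreatine serves cells as a quickly available store and carrier of energy. A mitochondrial kinase in the intermembrane space takes ATP that leaves the matrix, and a cytosolic kinase regenerates ATP where it is spent. Creatine itself is either imported across the plasma membrane or made in steps, first by GATM (AGAT), which joins arginine and glycine to guanidinoacetate, and then by GAMT, which methylates that product with a methyl group from S-adenosylmethionine. The system is best known from muscle and brain, and activated T cells also take up creatine.

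All cells were OT-1 CD8+ T cells on a Rag-1 knockout C57BL/6 background, so every cell bears the same transgenic receptor, specific for SIINFEKL, a peptide of ovalbumin. Cells from lymph nodes of donors aged 5 to 12 weeks were activated with 100 nM peptide for 2 days and then kept in 20 ng/ml IL-2 for 2 days. During those last 2 days, 4 samples received 10 µM GC7 and 4 received its vehicle, acetic acid (Mock). GC7 is a spermidine-like compound that occupies the spermidine site of deoxyhypusine synthase and so blocks the hypusine modification of the translation factor eIF5a. GC7 may also act on other targets, and no eIF5a-deficient cells were among these 8 libraries.

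Total counts ranged from 17528776 to 25284730 per library. All 8 CD8+ T cell markers on the list passed the filter, with summed levels of 7701 to 8802 CPM (counts scaled to a common library size) in Mock and 5598 to 7093 CPM in GC7. The largest part of that sum was *Gzmb*, the cytotoxic protease granzyme B (4438 CPM in Mock, 2907 CPM in GC7). *Cd8a* had a log2 fold change of 0.48 and *Ptprc* of 0.02, and the other markers on the list were lower in GC7. They were at -0.27 (*Cd3d*), -0.23 (*Cd3e*), -0.37 (*Cd3g*), -0.18 (*Cd8b1*), -0.61 (*Gzmb*) and -1.46 (*Prf1*). Of 27 markers of other cell types, 24 did not pass the filter and together reached 3.28 to 5.06 CPM in Mock and 3.21 to 4.30 CPM in GC7, with 2 at 0 in every library. The 3 that passed were *Cd68*, *Pecam1* and *Epcam*, and with them the sums were 86.4 to 88.5 CPM in Mock and 61.4 to 69.6 CPM in GC7. The part of these marker levels in the creatine gene values was not tested. In bulk RNA, fewer cells of a type and less RNA per cell cannot be told apart.

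The promoters of both kinases are shown because these genes moved in opposite directions. The sequences are from RefSeq on GRCm38.p6, each 250 bases before to 50 after an annotated start, 5′ to 3′ on the gene's strand, and 3 of the 4 members had an entry, *Ckmt1* with 2 starts. Capitals mark TATAAA (the TATA box) or CCAAT (the CCAAT box) on either strand, so TTTATA and ATTGG are matches on the opposite strand.
Ckmt1, first start, chr2:121357526-121357825, plus strand: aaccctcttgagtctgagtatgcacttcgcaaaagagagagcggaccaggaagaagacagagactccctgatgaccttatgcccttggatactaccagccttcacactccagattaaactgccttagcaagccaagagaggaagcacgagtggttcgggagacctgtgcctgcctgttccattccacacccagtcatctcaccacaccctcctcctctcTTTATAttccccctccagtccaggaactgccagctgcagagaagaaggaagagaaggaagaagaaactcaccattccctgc
Ckmt1, second start, chr2:121358360-121358659, plus strand: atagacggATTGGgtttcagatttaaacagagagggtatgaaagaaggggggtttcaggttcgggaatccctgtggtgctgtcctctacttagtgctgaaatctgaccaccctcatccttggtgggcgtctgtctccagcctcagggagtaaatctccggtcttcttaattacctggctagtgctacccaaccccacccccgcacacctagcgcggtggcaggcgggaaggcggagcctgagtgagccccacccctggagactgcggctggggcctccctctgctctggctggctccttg
Ckb, chr12:111672289-111672588, minus strand: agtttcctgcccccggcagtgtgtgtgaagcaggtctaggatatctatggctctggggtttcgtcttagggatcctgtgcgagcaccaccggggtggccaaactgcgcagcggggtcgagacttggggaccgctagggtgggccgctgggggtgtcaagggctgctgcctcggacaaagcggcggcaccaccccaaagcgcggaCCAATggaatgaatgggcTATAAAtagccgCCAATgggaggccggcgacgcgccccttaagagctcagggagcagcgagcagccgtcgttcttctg

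The *Ckb* promoter held TATAAA 28 bases before the start and CCAAT at 46 and 16 bases before it, with 22 CpG dinucleotides and 63.0% G and C. The first *Ckmt1* promoter had 52.0% G and C and 4 CpG dinucleotides, with a TATAAA match on the opposite strand 31 bases before the start. The second had 58.3% G and C and 10 CpG dinucleotides, with a CCAAT match on the opposite strand 242 bases before the start. TATAAA occurred on either strand in 13.6% of 32851 promoter windows of the same length, and CCAAT in 37.4%. *Gamt* had 4 matches of GGGCGG (the GC box), the last of them 37 bases after the start, and 35.7% of windows held any match. CACGTG (7.15% of windows) and TGATGNAA (3.97%), both also searched on either strand, were not found in these windows of *Ckmt1*, *Ckb* and *Gamt*. Counts per gene do not separate the *Ckmt1* starts.

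*Ckmt1* (ENSMUSG00000000308, chr2:121357714-121363737, GRCm38, plus strand) encodes the ubiquitous mitochondrial creatine kinase. The 4 Mock libraries held 4, 7, 3 and 5 *Ckmt1* counts, and the 4 GC7 libraries held 174, 163, 395 and 287. Scaled by TMM factors, which assume that most genes do not change, these were 0.205, 0.298, 0.140 and 0.251 CPM in Mock and 8.47, 7.42, 22.0 and 11.99 CPM in GC7. *Ckmt1* was thus close to the limit of detection in every Mock library, and the lowest GC7 library was far above the highest Mock library. The means were 0.223 ± 0.0672 CPM in Mock and 12.5 ± 6.67 CPM in GC7 (SD, n = 4 each), a log2 fold change of 5.75 (SE 0.47) in the edgeR fit. Among the 10187 protein-coding genes tested, it ranked first by increase.

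Summed over libraries, 19 *Ckmt1* counts in Mock stood against 1019 in GC7, and the exact 95% interval for the ratio, which covers counting error only, ran from 34.2 to 89.5. The size of the fold therefore rested on few Mock reads, and a larger prior count of 2 gave a log2 fold change of 5.29. GC7 replicate 3 held the highest value, and the GC7 values had a coefficient of variation of 53.4%, against 13.3% for *Ckb* in the same libraries. Without that replicate the log2 fold change was 5.33. *Ckmt1* passed the filter only through its GC7 libraries, so its presence among the tested genes already required a difference.

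*Ckb* (ENSMUSG00000001270, chr12:111669361-111672338, minus strand), the cytosolic brain-type creatine kinase, went the other way. It had 555, 881, 744 and 675 counts in Mock and 253, 235, 263 and 289 in GC7, or 28.5, 37.5, 34.7 and 33.8 CPM against 12.3, 10.7, 14.7 and 12.1 CPM. Every GC7 library was below every Mock library, and within each group the libraries were close together. The means were 33.6 ± 3.77 CPM and 12.4 ± 1.65 CPM (SD, n = 4 each), a log2 fold change of -1.44 (SE 0.11), or 2.71-fold lower in GC7. It ranked 293 among the decreases of protein-coding genes. The pseudogenes *Gm12892*, 96.8% identical over 1149 bases, and *Ckb-ps1*, 92.0% identical over 373 bases, had at most 2 and 0 counts in any library.

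*Slc6a8* (ENSMUSG00000019558, chrX:73673150-73682502, plus strand), the sodium-dependent creatine transporter of the plasma membrane, was low in both groups. Its counts were 68, 69, 79 and 66 in Mock and 67, 81, 77 and 76 in GC7, or 3.49, 2.93, 3.68 and 3.31 CPM against 3.262, 3.69, 4.30 and 3.17 CPM. The groups overlapped. The log2 fold change was 0.10 (SE 0.15), and the counting interval for the ratio of GC7 to Mock ran from 0.905 to 1.26. That interval covers counting error only, without the spread between libraries, so it sets no limit on the difference between groups. *Slc6a8* is X-linked, and all 8 libraries had at most 5 counts of *Xist* and 1257 to 1815 counts of the Y-linked *Ddx3y*.

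*Gamt* (ENSMUSG00000020150, chr10:80258151-80261012, minus strand), the methyltransferase that completes creatine, gave 16, 45, 24 and 17 counts in Mock and 12, 7, 4 and 16 in GC7. On the CPM scale these were 0.820, 1.91, 1.12 and 0.852 against 0.584, 0.319, 0.223 and 0.668. The GC7 values were all below the Mock values, but GC7 replicate 4 and Mock replicate 1 were close, and Mock replicate 2 stood well above the rest. A fit without the filter gave a log2 fold change of -1.37 (SE 0.34). The interval for the ratio of Mock to GC7 counts, which covers counting error only, ran from 1.79 to 3.88. Without Mock replicate 2 the log2 fold change was -1.02.

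**Figure D1:**
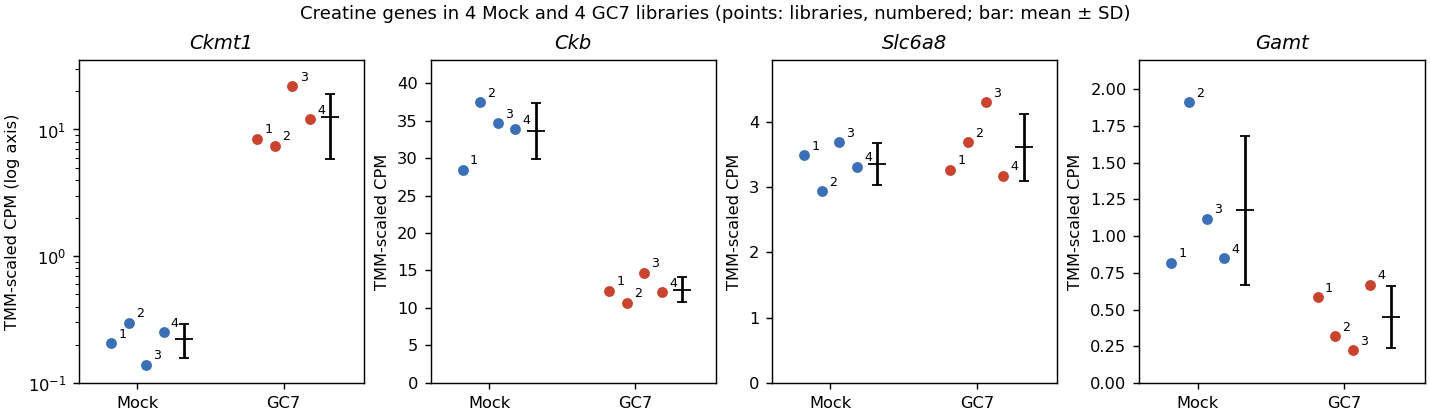
TMM-scaled CPM of the 4 genes in each library (points, numbered by replicate) with the mean and SD of each group (bars, n = 4 each); the *Ckmt1* axis is logarithmic and the others start at 0. *Ckmt1* lay at 0.140 to 0.298 CPM in Mock and 7.42 to 22.0 CPM in GC7, *Ckb* and *Gamt* were lower in all GC7 libraries, and *Slc6a8* overlapped.

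Of the 3 members that passed the filter, *Ckmt1* and *Ckb* did not overlap between groups, *Ckmt1* higher and *Ckb* lower in GC7. Among all 11189 genes tested, 55.6% did not overlap, 28.1% with all GC7 libraries higher and 27.5% with all lower. Nothing can be read from the members' share, since this comparison chose them.

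Levels of different genes were compared per kilobase of exon. On that scale *Ckmt1* went from 0.0895 ± 0.0269 CPM per kilobase in Mock to 5.0 ± 2.67 in GC7, while *Ckb* went from 11.6 ± 1.30 to 4.30 ± 0.571 (SD, n = 4 each). Among tested genes *Ckmt1* stood at the 0.0983 percentile of Mock levels and the 35.4 percentile of GC7 levels, and *Ckb* at the 61.6 and 31.1 percentiles. The GC7 levels of the mitochondrial and the cytosolic kinase were thus of similar size. *Slc6a8* stayed at 0.643 and 0.692 CPM per kilobase, near the bottom of the tested genes in both groups.

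The other creatine kinases hardly contributed. *Ckm*, the muscle cytosolic kinase, had 1 to 5 counts in every library, and *Ckmt2*, the sarcomeric mitochondrial kinase, had 0 counts in 5 libraries and at most 3 in the others. A count of 0 still allows up to 3 counts, which is 0.1253 to 0.1674 CPM in these libraries.

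The makeup of creatine kinase transcripts therefore differed between the groups. *Ckmt1* made up 0.818, 0.908, 0.464 and 0.846% of the summed CPM per kilobase of the 4 kinase genes in Mock, and 43.9, 44.3, 62.8 and 53.3% in GC7. *Ckb* went from 98.5 ± 0.605% of the sum to 48.1 ± 9.04% (SD, n = 4 each), and no library of either group reached the range of the other. The mitochondrial kinase was the larger share in GC7 replicates 3 and 4, at 62.8% against 36.0% and 53.3% against 46.2% for *Ckb*, and the smaller share in replicates 1 and 2. Without division by length, *Ckmt1* made up 47.5% in GC7.

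The summed levels of the groups overlapped, through GC7 replicate 3 alone. It was 10.1, 13.1, 12.1 and 11.9 CPM per kilobase in Mock and 7.73, 6.71, 14.1 and 9.02 in GC7, so that replicate 3 held the highest of all 8 values and the other 3 GC7 values were below every Mock value. Without division by length, replicate 3 (37.0 CPM) was below Mock replicate 2 (38.0 CPM) and above the other Mock libraries. As transcript counts, these values hold nothing on enzyme amount or activity.

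**Figure D2:**
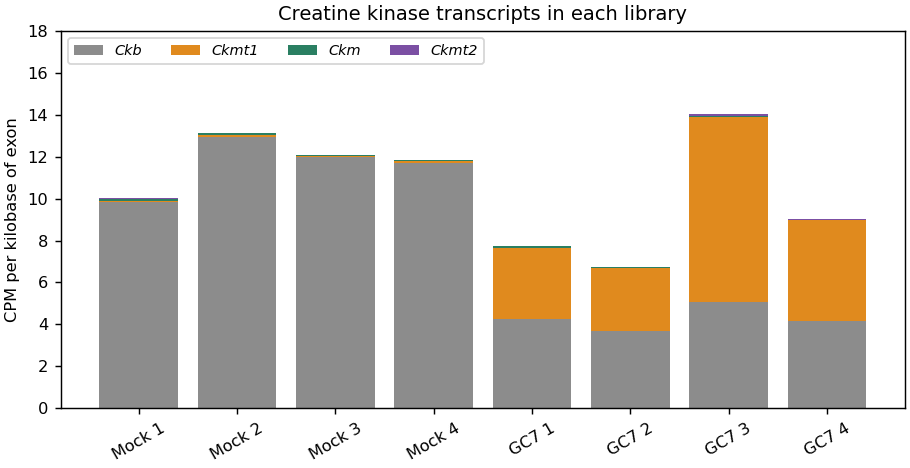
Stacked bars of CPM per kilobase of exon for *Ckb*, *Ckmt1*, *Ckm* and *Ckmt2* in each of the 8 libraries. *Ckb* filled at least 97.8% of each Mock bar, *Ckmt1* filled 43.9 to 62.8% of each GC7 bar, and the bar heights overlapped between the groups.

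The first enzyme of creatine synthesis was not a member and was tested. It was listed with results of these libraries known, so its p is not independent evidence. *Gatm*, which transfers the amidino group of arginine to glycine, was at 17.2, 13.0, 18.1 and 17.0 CPM in Mock and 9.49, 9.51, 10.6 and 10.1 CPM in GC7. All GC7 libraries were below all Mock libraries, and *Gatm* fell by 0.72 on the log2 scale (SE 0.11, edgeR quasi-likelihood test, Benjamini-Hochberg adjusted p = 1.36e-04). Both synthesis genes thus had lower values in GC7, *Gatm* past the test and *Gamt* without one. *Slc16a12*, another creatine transporter, had 1 count in all 8 libraries together.

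Genes around the creatine system were taken from lists of 74 genes, and 36 of them passed the filter. Of those 36, 12 rose and 9 fell at an FDR under 0.01, which is 58.3%, where 46.6% of all tested genes passed the same FDR (23.0% higher and 23.5% lower). The median log2 fold change of the 36 was -0.03, and that of all genes was 0.02. With a 2-fold change required as well, 3 rose and 2 fell, and 8.48% of all genes did so (3.17% higher and 5.31% lower). *Ak1*, described with the adenylate kinases, is among those that rose in both counts. It passed the filter only through its GC7 libraries, so its call already required a difference. The lists were written with results of these libraries known, so their counts are not independent evidence of a direction. The counts of each list below are few and are to be read beside the 46.6% of all genes.

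The substrates of GATM are arginine and glycine, and 7 of 10 genes for their supply were tested, of which 2 rose, 1 fell and 4 did not pass (median log2 fold change 0.09). *Slc6a9*, the glycine transporter GlyT1, had 7.90, 6.55, 8.48 and 8.32 CPM in Mock and 24.5, 24.3, 17.97 and 21.0 CPM in GC7. It rose by 1.49 on the log2 scale (SE 0.12, adjusted p = 6.36e-07). *Asl*, which releases arginine from argininosuccinate, had 37.7 to 44.9 CPM in Mock and 19.1 to 21.3 CPM in GC7, and fell by 1.01 (SE 0.076, adjusted p = 3.62e-07), with -1.04 to -0.91 over the alternatives, on both sides of 2-fold. *Slc7a1*, the main cationic amino acid transporter for arginine, was at 143 ± 24.7 CPM in Mock and 241 ± 42.9 CPM in GC7, and rose by 0.75 on the log2 scale (adjusted p = 6.51e-04). The importers *Slc6a9* for glycine and *Slc7a1* for arginine were thus higher in GC7, while *Asl*, 1 gene of arginine synthesis, was lower. *Ass1*, the step before *Asl*, had a log2 fold change of 0.09 with a 95% interval of -0.04 to 0.22.

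GAMT draws its methyl group from S-adenosylmethionine, and 8 of 13 genes of the methyl donor cycle were tested, with 4 higher, 0 lower and 4 not past the test (median 0.25). *Mat2a*, which makes S-adenosylmethionine from methionine, had 104, 95.7, 102 and 106 CPM in Mock and 215, 217, 197 and 206 CPM in GC7. Its log2 fold change was 1.04 (SE 0.060, edgeR adjusted p = 3.32e-08). *Mtr* and *Mtrr*, the enzyme that remakes methionine from homocysteine and its reductase, rose by 0.53 and 0.48. *Mat2b*, the regulatory subunit, had the lowest value of the list at -0.18 (95% interval -0.31 to -0.05, adjusted p = 0.0325), and passed the FDR without GC7 replicate 3 (-0.24, adjusted p = 0.00531).

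Mitochondrial creatine kinase works beside the adenine nucleotide carriers of the inner membrane and the channels of the outer membrane. Of 6 such genes 5 were tested, and 0 rose and 2 fell (median -0.13). That is 40.0%, where 46.6% of all tested genes passed the FDR. *Vdac1*, an outer membrane channel, went from 436 ± 18.8 to 320 ± 12.1 CPM (log2 fold change -0.45, SE 0.060, adjusted p = 4.60e-05). *Slc25a4*, the carrier ANT1, went from 303 ± 24.2 to 224 ± 5.65 CPM (log2 fold change -0.43, adjusted p = 1.27e-04). *Slc25a5*, the carrier ANT2, had a log2 fold change of -0.08 with a 95% interval of -0.20 to 0.04, and a value of 0.01 when scaled by library totals alone.

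Adenylate kinases share the work of creatine kinases, moving phosphate between adenine nucleotides. Of 9 genes 5 were tested, with 2 higher, 1 lower and 2 not past the test (median 0.20). *Ak1*, the main cytosolic isoform, had 1.44, 0.680, 1.59 and 0.752 CPM in Mock and 16.5, 16.5, 24.0 and 16.0 CPM in GC7. It was 16.4-fold higher in GC7 (log2 fold change 4.04, SE 0.23), and GC7 replicate 3 was again the highest library. Like *Ckmt1*, *Ak1* passed the filter only through its GC7 libraries, so its place among the genes that rose already required a difference and no p is given. *Ak4*, a mitochondrial matrix isoform, had 86.9, 79.8, 78.8 and 82.5 CPM in Mock and 32.2, 32.1, 18.5 and 24.4 CPM in GC7. It fell by 1.61 on the log2 scale (SE 0.14, adjusted p = 1.21e-06), with replicate 3 the lowest. In the adenylate kinases the cytosolic *Ak1* was higher and the matrix *Ak4* lower, whereas in the creatine kinases the mitochondrial gene was higher and the cytosolic gene lower. *Ak6*, a nuclear member of the family, rose by 0.47.

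**Figure D3:**
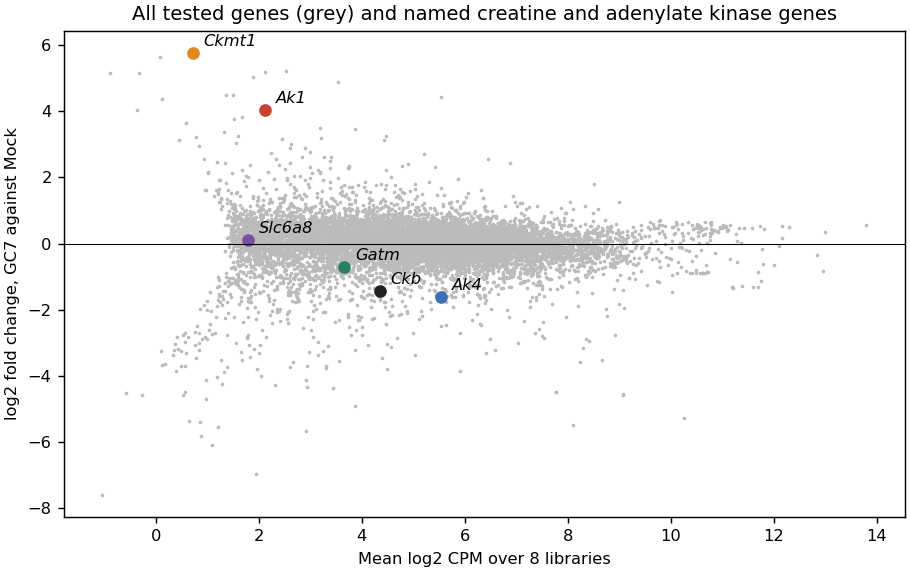
Log2 fold change (GC7 against Mock) against mean log2 CPM for every tested gene (grey points), with *Ckmt1*, *Ckb*, *Slc6a8*, *Gatm*, *Ak1* and *Ak4* in colour. *Ckmt1* (5.75) and *Ak1* (4.04) lie at the upper left, where mean expression is low, *Ckb* (-1.44) and *Ak4* (-1.61) lie below most genes, and *Slc6a8* (0.10) lies near 0.

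Nucleoside diphosphate kinases pass phosphate from ATP to the other nucleotides, and 4 of 7 genes were tested, of which 2 rose, 1 fell and 1 did not pass (median 0.21). *Nme4*, the mitochondrial isoform, rose by 0.77 (SE 0.13, adjusted p = 3.32e-04), from 8.46 ± 1.02 to 14.5 ± 2.50 CPM. *Nme1*, a cytosolic isoform, rose by 0.49 (adjusted p = 5.38e-04). *Nme7* fell by 0.78 (SE 0.11, adjusted p = 5.79e-05), from 18.6 ± 1.29 to 10.8 ± 1.59 CPM. *Nme1* and *Nme2* lie side by side and are similar in sequence, and the handling of reads matching both is not given in the sources used here.

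AMP-activated kinase senses the nucleotide ratios that creatine kinase buffers. Of its 7 subunit genes 5 were tested, with 1 higher, 3 lower and 1 not past the test (median -0.46). *Prkab1*, a beta subunit, fell by 0.71 (SE 0.063, adjusted p = 1.45e-06), from 45.7 ± 0.925 to 28.0 ± 1.38 CPM. *Prkab2*, the other beta subunit, fell by 0.62, and the catalytic *Prkaa1* fell by 0.46. *Prkag2*, a nucleotide-binding gamma subunit, rose by 0.41 (adjusted p = 0.00489), a call lost without Mock replicate 1 or 3 or GC7 replicate 1, 2 or 4 (adjusted p up to 0.0146). Only *Slc6a6*, the taurine transporter, was tested among 18 other genes of the SLC6 transporter family, and it rose by 0.34 (adjusted p = 0.0062). Its call was lost without Mock replicate 3 or 4 or GC7 replicate 1, 2 or 4 (adjusted p up to 0.0225).

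**Figure D4:**
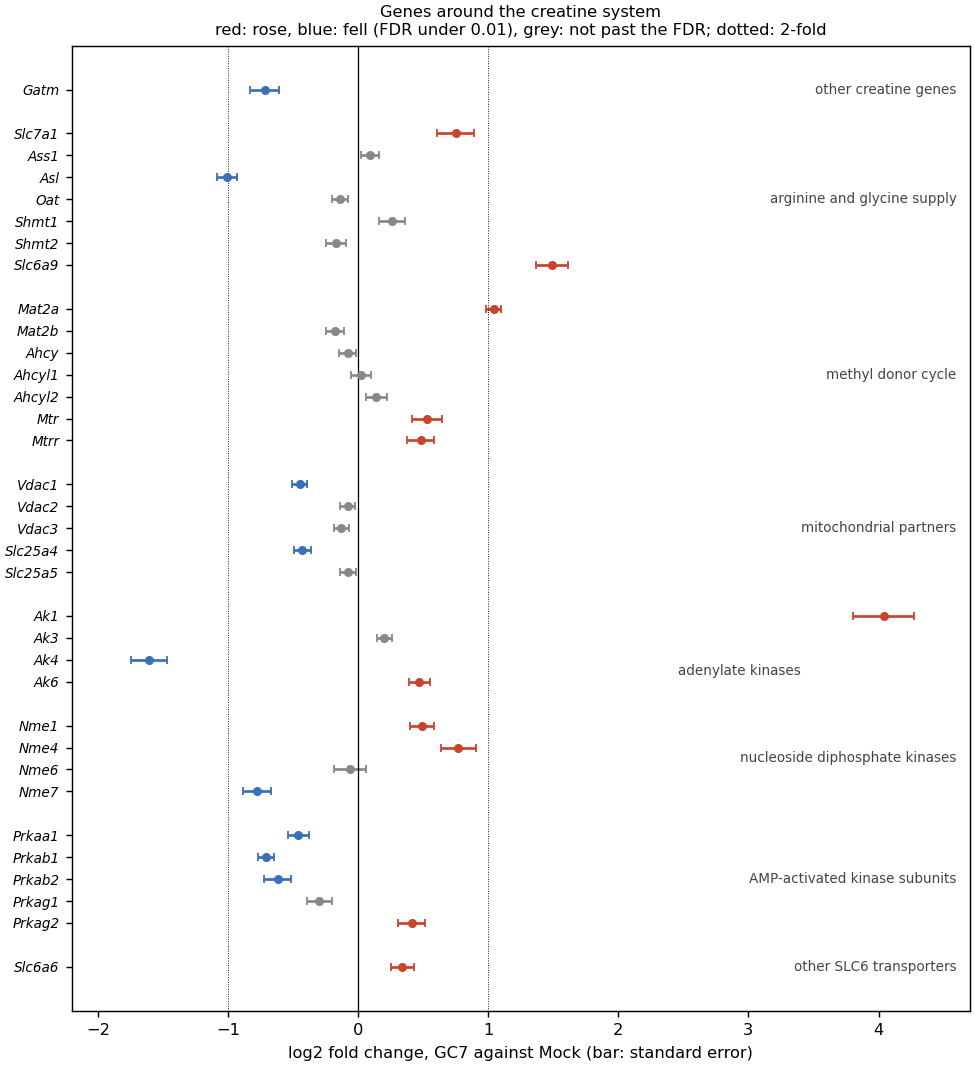
Log2 fold change (GC7 against Mock) with its standard error for 34 of the 36 tested genes around the creatine system, grouped by list, with red for 11 genes that rose, blue for 9 that fell (FDR under 0.01) and grey for the rest. *Ak1* (4.04) and *Slc6a9* (1.49) lie farthest to the right and *Ak4* (-1.61) farthest to the left, and dotted lines mark a 2-fold change. *Ak1* passed the filter only through its GC7 libraries, so its call already required a difference.

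GC7 replicate 3 carried the extreme value among the GC7 libraries for *Ckmt1*, *Ckb* and *Slc6a8* (highest) and for *Gamt* (lowest). Over 40 genes, the members and the tested pathway genes, it was the highest or the lowest GC7 library for 27, where replicates 1, 2 and 4 were so for 19, 16 and 18. It also had the smallest total of the 8 libraries. The part of depth in these values was not tested. Without it *Ckb* had a log2 fold change of -1.53 and *Slc6a8* of 0.01, and *Ckmt1* made up 47.1% of the kinase sum in GC7.

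Genes whose profiles lay nearest to each member's were found by the root mean square difference of log2 CPM, centred on the Mock mean, over the 8 libraries. For *Ckmt1* they were *Xcl1*, a chemokine of cytotoxic lymphocytes (0.605), *Sulf2*, an extracellular sulfatase (0.654), and *Cox6a2*, the heart and muscle form of a cytochrome c oxidase subunit (0.675). *Cox6a2* went from 2.16 ± 0.360 to 62.9 ± 7.69 CPM. None of the 3 repeated the high GC7 replicate 3 of *Ckmt1* to the same degree, since their GC7 coefficients of variation were 14.2, 10.1 and 12.2%. For *Ckb* the nearest were *Nradd* (0.045), *Atg9b* (0.112) and *Mvd*, an enzyme of sterol synthesis (0.116). For *Slc6a8* they were *Sp3* (0.0685), *Mfsd8* (0.0709) and *Tbc1d15* (0.0717), and for *Gamt* they were *Plekhh3* (0.324), *Klf2*, a transcription factor of resting T cells (0.354), and *Tlcd2* (0.374).

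Neighbouring genes were read because the strand setting of the counting is not given in the sources used here. *Ckmt1* overlaps the end of *Strc*, on the opposite strand, by 10 bases, and *Strc* had 7 counts over the Mock libraries and 3 over the GC7 libraries. *Ppip5k1*, 2318 bases before *Ckmt1* on the opposite strand, rose by 0.66 on the log2 scale (adjusted p = 4.83e-05), from 17.5 ± 1.41 to 27.7 ± 2.55 CPM. Beside *Ckb*, which was lower, *Mark3* and *Trmt61a* rose by 0.35 and 0.61 (adjusted p = 3.86e-04 and 0.0058). The *Trmt61a* call was lost without any 1 of Mock replicates 1, 3 and 4 or GC7 replicates 1, 2 and 4 (adjusted p up to 0.0227). *Bcap31*, beside *Slc6a8*, and *Ndufs7* and *Dazap1*, beside *Gamt*, had log2 fold changes of -0.07, -0.21 and -0.16 (adjusted p = 0.376, 0.081 and 0.0411), and *Bcap31* was at 0.02 when scaled by library totals alone. *Catsper2*, after *Ckmt1*, and *Pnck*, before *Slc6a8*, did not pass the filter.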

How the data were processed

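Messenger RNA of 8 libraries, 4 Mock and 4 GC7, was grouped by the sample labels. The authors deposited raw counts per Ensembl gene, 1 table per library, made with Cutadapt (version 2.3), STAR (version 2.7.1a) on GRCm38 with Ensembl release 96, and featureCounts (Rsubread, version 1.6.4). The strand setting and the handling of multiply matching reads are not given in the sources used here. The methods name 4 biological replicates, without saying whether each was a separate animal, so p-values measure the spread between these samples.

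Genes above 3 CPM in 4 or more libraries were tested with edgeR (version 4.0.16, R version 4.3.3), using TMM factors, a quasi-likelihood F test on the group alone, and p-values adjusted by Benjamini-Hochberg across 11189 genes. The fits were also run on simulated counts with known changes and the same replicate spread for every gene. Replicates in these data are less even, so that run does not measure the error rate here. Rose and fell mean an FDR under 0.01. The standard error is the log2 fold change divided by the square root of F. *Gamt* came from the same fit without the filter. Levels are TMM-scaled CPM, mean ± SD. Of 55536 identifiers, 55450 matched the annotation. Near-identical copies were matches of at least 200 bases at 90% identity in BLAST (version 2.17.0). Other steps used Python (version 3.11.15), pandas (version 2.3.3) and scipy (version 1.17.1).

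The members and gene lists were chosen with earlier results of these data known. Named are the members, all other creatine genes, list genes past an FDR of 0.01 and 2-fold (otherwise the highest and lowest), the 3 nearest profiles of each member and neighbouring genes. *Slc7a1*, *Ass1*, *Mtr*, *Mtrr*, *Mat2b*, *Slc25a4*, *Ak6*, *Nme1*, *Prkaa1*, *Prkab2*, the marker genes and *Gm12892* and *Ckb-ps1* were named after their values were seen. The values of 2 listed genes are not reported here, though the counts and medians of the lists include them. Alternatives were RLE factors, library totals, no filter, filterByExpr, a replicate block, DESeq2 (version 1.42.0), a prior count of 2, no division by length and each library left out, with at least 3 libraries over the minimum.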

Additional observations from a re-analysis of the deposited data

Results flagged for a closer look

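*Ak1* in GC7 had 1 library far from the other 3: replicate 3, at 24.0 CPM against 16.0 to 16.5 CPM, with a gap to the nearest library of 0.942 of the group's range (critical value for 4 libraries 0.829). In all, 52 groups of 4 values were examined, chance alone flags about 5% of them (2.6), and 1 was found. All 4 *Ak1* values in GC7 stayed above the highest Mock value of 1.59 CPM.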

How the results depend on the processing

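The 4 members kept their direction in every alternative run. Log2 fold changes ran from 5.29 to 5.93 for *Ckmt1*, -1.53 to -1.34 for *Ckb*, 0.01 to 0.19 for *Slc6a8* and -1.64 to -1.02 for *Gamt*. With 1 library left out they were 5.33 to 5.93, -1.53 to -1.37, 0.01 to 0.16 and -1.64 to -1.02, and the *Ckmt1* share of the kinase sum in GC7 was 47.1 to 53.4%. Of the 36 pathway genes, 21 passed the FDR, and 18 to 23 did so in the alternatives that tested 36, against 21 of 41 with filterByExpr and 25 of 62 without the filter. Of 435 fits of 29 named pathway and neighbouring genes, 416 kept direction and call, 16 lost the call, 1 gained it (*Mat2b*) and 2 changed sign. The last were *Slc25a5* (0.01, adjusted p = 0.863) and *Bcap31* (0.02, adjusted p = 0.762) with library totals. Library totals moved the median of all genes from 0.02 to 0.11. Genes past FDR and 2-fold numbered 949, with 937 to 1003 when 1 library was left out, 1962 of 28350 without the filter (773 higher, 1189 lower) and 1614 of 14517 with filterByExpr (601 and 1013), as both tested more low genes. A replicate block, run because the labels share numbers, gave 5.71, -1.44, 0.10 and -1.34 for the members. Same-numbered libraries deviated with correlations of 0.258, -0.111, 0.20 and -0.176, and differently numbered ones with -0.295 to 0.406. With only 4 same-numbered pairs, these values cannot settle whether the numbers pair the samples. Depth limits *Ckmt1* in Mock, *Gamt*, *Ckm* and *Ckmt2*, each with few counts per library.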
